A study of Mus musculus with 16 samples.

Results

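Chemokine receptors were described in macrophages of the mouse heart and of the 3 serous cavities, the membrane-lined spaces that hold the heart (pericardial cavity), lungs (pleural cavity) and gut (peritoneal cavity). The 8 genes were chosen by name: Ccr1, Ccr2, Ccr3, Ccrl2, Cx3cr1, Cxcr2, Cxcr4 and Ackr3. All 8 were found, each once, among the 24981 genes of the deposited table, and they stood beside 16 other chemokine receptor genes. The study sorted macrophages by flow cytometry from C57BL/6 mice of 8 weeks under baseline conditions, with no treatment and no altered gene named, and sequenced 4 libraries from each site, numbered 2 to 5. Cavity cells came from lavage. The labels do not say whether the libraries came from separate animals, and no source used here gives the sort gates. The p-values below therefore speak of the spread among these libraries and no more.

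Chemokines are small secreted proteins that steer white blood cells, and their receptors span the membrane with several helices and signal through inhibitory G proteins. CCR2 binds CCL2 and related chemokines and brings monocytes out of the bone marrow, and in the mouse heart it is used to tell macrophages replenished from monocytes from longer-lived resident ones. CX3CR1 binds fractalkine (CX3CL1), CXCR4 binds CXCL12, and CCR1 binds CCL3, CCL5 and related chemokines. Atypical receptors such as ACKR3 bind chemokines without the usual G protein signal.

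Levels are RPKM (reads divided by transcript length and by a read total), as deposited by the authors, so levels of different genes can be set side by side. Libraries held between 40886702 and 70166356 alignments, and their summed RPKM ran from 227397 to 482872. All 7 macrophage markers were present in every group. Against heart, 3 were called higher and 2 lower in each cavity. Over all tested genes 47.8% to 53.8% were called higher and 13.9% to 14.7% lower. Csf1r was higher in heart (509 RPKM on average against 214 to 258) as was Fcgr1 (39.3 against 8.08 to 13.5), while Lyz2, Itgam and Adgre1 were higher in cavities. Their sum, 20018 to 42471 in cavity and 4573 to 8128 in heart libraries, was nearly all Lyz2. The 3 large cavity macrophage markers (Gata6, Icam2 and Timd4) summed to 443 to 830.5 in cavity and 43.1 to 58.3 in heart libraries. Heart libraries also held more RNA of 8 cardiomyocyte markers (253 to 523 against 2.66 to 4.49 RPKM summed), of 7 fibroblast markers (59.5 to 272 against 0.135 to 0.780) and of 9 immediate early and heat shock genes that respond to tissue handling (8436 to 11412 against 82.8 to 558). Of the 8 cardiomyocyte markers, 7 were called lower and 1, Ryr2, higher in each cavity. Ryr2 averaged 1.92, 1.57 and 2.21 RPKM in pericardial, pleural and peritoneal cells and 0.411 in heart. The sums above moved with every difference between heart and cavity given here, and their part in those differences was not tested. In sorted bulk samples, fewer cells of a type and less RNA per cell cannot be told apart.

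Promoter windows are shown for 4 receptors, chosen after their values were seen as 2 that were higher and 2 that were lower in heart, to set the sequence at their starts side by side. Each is the 250 bases before the RefSeq transcript start on GRCm38.p6, read 5′ to 3′ on the gene's strand. Capitals mark matches, on either strand, to any of 4 motifs. The myeloid factor PU.1 binds a core searched for as GAGGAA. The AP-1 site was searched for as TGANTCA, where N is any base. The TATA box, a core promoter element, was searched for as TATAAA. The site of GATA factors was searched for as AGATAA. The Cx3cr1 window is chr9:120068297-120068546 on the minus strand, the Cxcr4 window chr1:128592300-128592549 on the minus strand, the Ccr1 window chr9:123968693-123968942 on the minus strand and the Ackr3 window chr1:90203730-90203979 on the plus strand.
Cx3cr1: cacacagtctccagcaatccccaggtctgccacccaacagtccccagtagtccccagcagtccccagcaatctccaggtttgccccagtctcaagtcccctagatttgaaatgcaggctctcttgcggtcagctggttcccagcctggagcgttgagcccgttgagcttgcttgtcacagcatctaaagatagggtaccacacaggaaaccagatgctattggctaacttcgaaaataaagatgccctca
Cxcr4: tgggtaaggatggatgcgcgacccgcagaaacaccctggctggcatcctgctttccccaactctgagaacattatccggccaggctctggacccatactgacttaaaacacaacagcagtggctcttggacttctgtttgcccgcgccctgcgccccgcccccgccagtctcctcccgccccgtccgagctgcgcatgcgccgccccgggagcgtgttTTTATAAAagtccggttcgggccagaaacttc
Ccr1: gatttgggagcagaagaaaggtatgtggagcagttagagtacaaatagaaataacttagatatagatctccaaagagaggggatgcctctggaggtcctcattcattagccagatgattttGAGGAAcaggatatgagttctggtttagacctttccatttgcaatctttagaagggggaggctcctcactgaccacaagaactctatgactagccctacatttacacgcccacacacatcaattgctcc
Ackr3: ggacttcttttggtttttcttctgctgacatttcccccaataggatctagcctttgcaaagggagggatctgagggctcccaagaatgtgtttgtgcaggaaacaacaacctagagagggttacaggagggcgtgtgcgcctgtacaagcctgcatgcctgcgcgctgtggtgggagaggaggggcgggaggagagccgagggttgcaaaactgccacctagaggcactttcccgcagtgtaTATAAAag
The Cx3cr1 window held none of these motifs. Cxcr4 held 2 overlapping TATA box matches, on opposite strands, whose first bases lay 32 and 30 bases before the start. Ackr3 held 1 TATA box match 8 bases before the start, and Ccr1 held 1 PU.1 core 129 bases before it. Among 32851 RefSeq start windows of this length, 12.4% held a TATA box, 23.3% the PU.1 core, 9.99% the GATA site and 6.75% the AP-1 site. These matches are letters in a window, with no measurement of binding in these data.

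Heart macrophages carried far more Cx3cr1, Cxcr4 and Ccrl2 than macrophages of any cavity, and cavity macrophages carried more Ccr1 and Ackr3. Ccr2 was highest in heart and lowest in the peritoneal cavity, with pericardial and pleural cells between them. Ccr3 was low everywhere, and Cxcr2 varied more within groups than between most of them. In a limma fit to log2(RPKM + 0.5) over 11234 genes that reached 1 RPKM in 4 or more libraries, 7 members passed this filter and Ccr3 did not. A gene was called at a Benjamini-Hochberg adjusted p under 0.05.

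Of the 7 tested members, 7 were called in pericardial against heart (2 higher and 5 lower), beside 68.5% of all tested genes (53.8% higher and 14.7% lower). In pleural against heart 6 were called (2 higher and 4 lower), beside 61.7% of all genes (47.8% higher and 13.9% lower). In peritoneal against heart 6 were called (2 higher and 4 lower), beside 62.9% (48.8% higher and 14.1% lower). The 3 comparisons share the heart libraries. The median log2 fold of the 7 members was -1.45, -1.0 and -2.06, beside 0.45, 0.36 and 0.38 over all tested genes. The balance of all called genes depended on scaling: 6048 genes were higher and 1650 lower in pericardial against heart, but 2694 and 4070 at an equal RPKM total, with 5366 and 1567 against 2709 and 3689 for pleural and 5485 and 1586 against 3470 and 3080 for peritoneal cells. Under median-ratio, quantile and equal-total scaling the median of all genes moved to between -0.12 and 0.13, and Ccr1, Ccr2, Ccrl2, Cx3cr1, Cxcr4 and Ackr3 kept their direction and their call in all 3 comparisons.

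**Figure D1:**
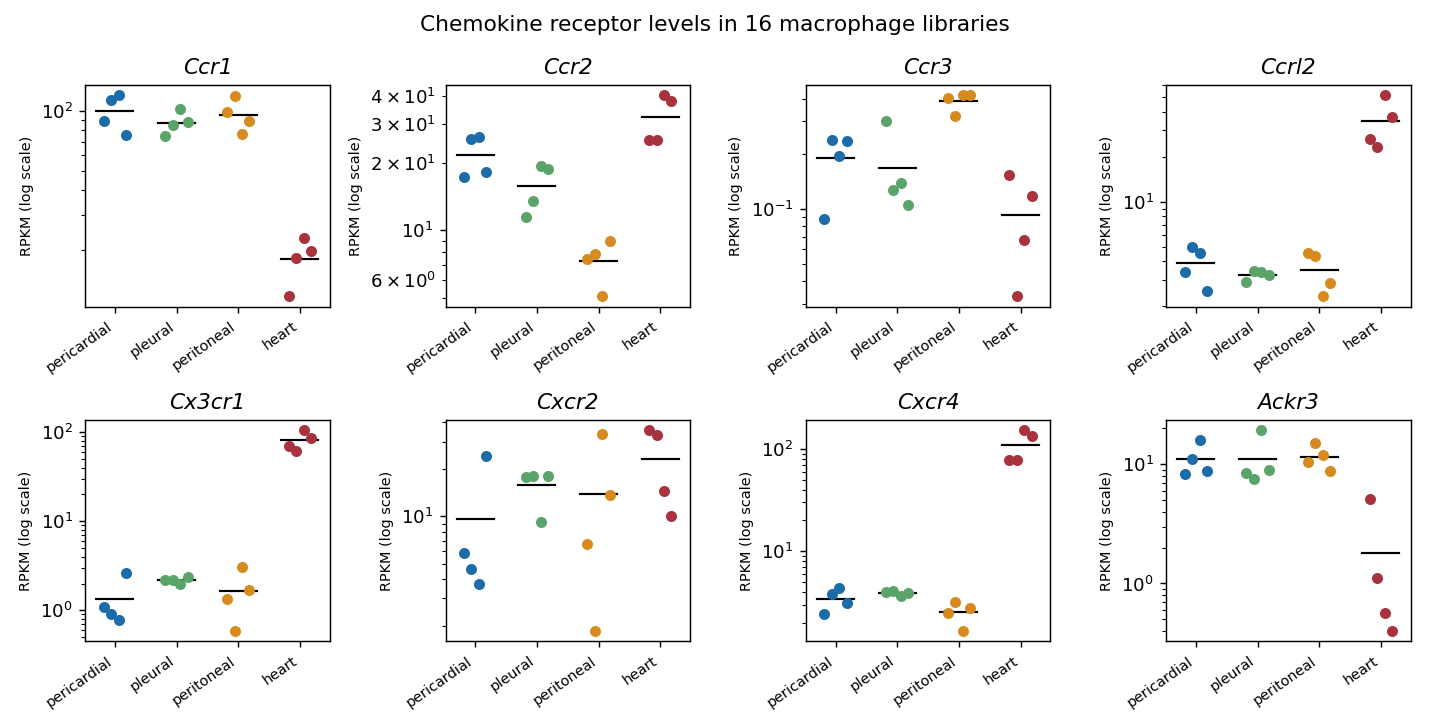
RPKM (log scale) of the 8 receptors in each of the 16 libraries, with 4 points per population and a line at the mean. Heart libraries lie above every cavity library for Cx3cr1, Cxcr4 and Ccrl2 and below every one for Ccr1 and Ackr3, while the groups overlap for Cxcr2.

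Cx3cr1, the fractalkine receptor of monocytes and many tissue macrophages, showed the largest fold of the 7 tested members in each comparison with heart. Heart libraries 2 to 5 held 69.1, 61.7, 107 and 86.9 RPKM. Pericardial libraries held 1.10, 0.915, 0.775 and 2.62 RPKM, pleural libraries 2.20, 2.22, 1.98 and 2.36, and peritoneal libraries 1.35, 0.583, 3.03 and 1.69. The lowest heart library thus stood above every cavity library, while the cavity groups overlapped each other. Within each cavity, though not in heart, the libraries ranked in the same order as for Cxcr2, described below. The part of this shared order in the folds between cavities was not tested. Every library of a cavity was below every heart library for 11.9%, 13.4% and 11.7% of all tested genes in the pericardial, pleural and peritoneal comparisons. The log2 fold of Cx3cr1 against heart was -5.53 ± 0.29 (SE) for pericardial, -4.89 ± 0.29 for pleural and -5.33 ± 0.29 for peritoneal macrophages (limma adjusted p = 2.93e-12, 2.11e-11 and 5.03e-12). Pericardial against pleural cells gave -0.63 ± 0.29, with an unadjusted p of 0.0424 and a limma adjusted p of 0.968. The 4 genes closest to Cx3cr1 in their pattern over the 16 libraries were the iron exporter Slc40a1, Olfml3, Serpinf1 and Ch25h, an enzyme that makes a hydroxylated cholesterol. Their centred log2 values differed from those of Cx3cr1 by a root mean square of 0.444 to 0.476, beside a spread of 2.32 (SD) of Cx3cr1 itself.

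Cxcr4, which holds leukocytes in tissues rich in CXCL12, was the most abundant receptor of heart macrophages. It stood at 77.3, 77.4, 154 and 132 RPKM in heart libraries 2 to 5. Pericardial libraries held 2.40, 3.78, 4.35 and 3.08 RPKM, pleural libraries 3.94, 4.04, 3.64 and 3.93, and peritoneal libraries 2.50, 3.15, 1.64 and 2.76. The heart and cavity ranges were far apart, and every pleural library was above every peritoneal one, as for 1.9% of all tested genes. The log2 fold against heart was -4.78 ± 0.22 for pericardial, -4.59 ± 0.22 for pleural and -5.16 ± 0.22 for peritoneal cells (limma adjusted p = 3.30e-13, 6.63e-13 and 9.77e-14). Pleural against peritoneal cells gave 0.57 ± 0.22 and was not called (limma adjusted p = 0.372). The authors' deposited table splits Cxcr4 into 2 transcripts, with group means of log2 RPKM of 6.30 and 4.70 in heart and 1.21 and 0.14 in pericardial cells, so both were higher in heart there. Closest in pattern were Arhgap22, Pxdc1, the purinergic receptor P2ry13 and the adaptor Scimp, at a root mean square difference of 0.297 to 0.328 (SD of Cxcr4 2.13).

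Ackr3, the atypical receptor that takes up CXCL12, had the opposite order. Pericardial libraries held 8.22, 11, 15.8 and 8.70 RPKM, pleural libraries 8.36, 7.45, 19.4 and 8.93, and peritoneal libraries 10.3, 15.1, 12 and 8.81. Heart libraries held 5.06, 1.11, 0.567 and 0.398 RPKM. No heart library reached the lowest cavity library, but heart library 2 stood well above the other 3 heart libraries. That library also had the highest sums of fibroblast (272 RPKM), endothelial (14.0) and mesothelial (1.57) markers, whose part was not tested. Ackr3 was higher than in heart by 2.70 ± 0.41 on the log2 scale for pericardial, 2.65 ± 0.41 for pleural and 2.79 ± 0.41 for peritoneal cells (limma adjusted p = 1.43e-05, 1.97e-05 and 9.88e-06). Without heart library 2 the folds were 3.26, 3.21 and 3.36. Every library of the cavity was above every heart library for 43.8%, 44.6% and 30.6% of all tested genes in the 3 comparisons, so for Ccr1 and Ackr3 this separation is common. The genes closest in pattern were Pi16, Palm, Plekha6 and Hsd11b1, which activates glucocorticoids (root mean square difference 0.333 to 0.433, SD of Ackr3 1.33).

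Because both receptors bind CXCL12, their ratio within a library, which no scaling of the library can change, was set out. Cxcr4 divided by Ackr3 ran from 15.3 to 332 across heart libraries, from 0.275 to 0.354 across pericardial ones, from 0.188 to 0.542 across pleural ones and from 0.137 to 0.313 across peritoneal ones. Cxcr4 thus exceeded Ackr3 in every heart library and was below it in every cavity library. The same holds for Cx3cr1 divided by Ccr2, which was 2.29 to 2.73 in heart and 0.0296 to 0.60 over the cavity libraries.

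**Figure D2:**
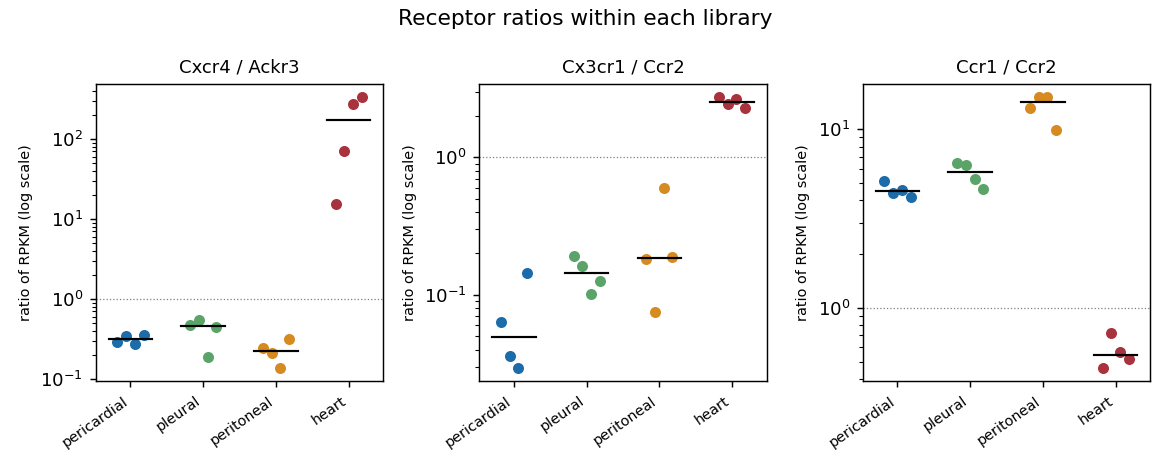
Ratio of RPKM between pairs of receptors within each library (log scale), with 4 points per population, a line at the median and a dotted line at a ratio of 1. Cxcr4 over Ackr3 and Cx3cr1 over Ccr2 are above 1 in heart only, and Ccr1 over Ccr2 is below 1 in heart only.

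Ccrl2, an atypical receptor that binds chemerin and presents it to neighbouring cells, was also higher in heart. Heart libraries held 26.2, 23.1, 51.8 and 36.7 RPKM, while pericardial libraries held 3.40, 4.96, 4.57 and 2.54, pleural libraries 2.90, 3.45, 3.40 and 3.24, and peritoneal libraries 4.55, 4.33, 2.32 and 2.87. Heart was separate from all cavities, and the cavities overlapped. The log2 fold against heart was -2.97 ± 0.24, -3.15 ± 0.24 and -3.09 ± 0.24 in pericardial, pleural and peritoneal cells (limma adjusted p = 1.87e-09, 7.47e-10 and 9.70e-10). In the authors' deposited table all 3 Ccrl2 transcripts had a higher mean of log2 RPKM in heart than in pericardial cells, by 4.15, 3.14 and 2.29. The genes with the closest pattern were the haem oxygenase Hmox1, Errfi1, Slc9a9 and the chemokine Ppbp, at 0.222 to 0.232 (SD of Ccrl2 1.37).

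Ccr1 was the most abundant receptor of every cavity population. Pericardial libraries held 88.7, 113, 119.9 and 75.4 RPKM, pleural libraries 74.5, 85.3, 101 and 87.5, and peritoneal libraries 98.7, 118, 76.5 and 88.5. Heart libraries held 11.7, 18.2, 22.8 and 19.7 RPKM. The 3 cavities overlapped fully and heart lay below them all. Ccr1 was higher than in heart by 2.44 ± 0.21 on the log2 scale for pericardial, 2.27 ± 0.21 for pleural and 2.39 ± 0.21 for peritoneal cells (limma adjusted p = 4.08e-09, 1.25e-08 and 5.42e-09), while the folds between cavities lay between -0.12 and 0.17. The genes most like it were AI467606, the actin regulator Baiap2, the adiponectin receptor Adipor2 and C130050O18Rik (root mean square difference 0.138 to 0.152, SD of Ccr1 1.06).

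**Figure D3:**
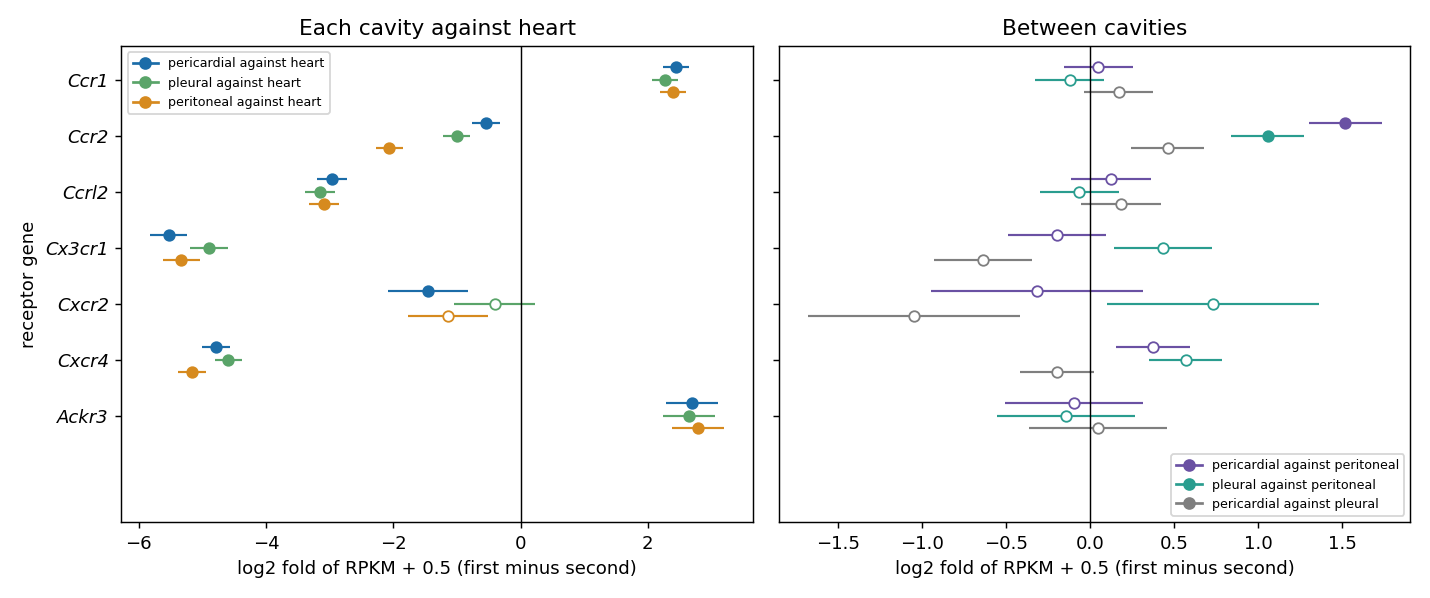
Log2 fold of RPKM + 0.5 with its standard error for the 7 tested receptors, each cavity against heart (left) and between cavities (right). Filled points were called by limma at an adjusted p under 0.05 and open points were not; between cavities only the 2 folds of Ccr2 against peritoneal cells are filled.

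Ccr2 was the one receptor of the set called between cavities. Pericardial libraries held 17.4, 25.6, 26.2 and 18.2 RPKM and pleural libraries 11.5, 13.6, 19.3 and 18.8. Peritoneal libraries held 7.46, 7.79, 5.05 and 8.94 RPKM, and heart libraries 25.3, 25.3, 40.4 and 37.9. Every peritoneal library was below every pleural, pericardial and heart library (every pericardial library lay above every peritoneal one for 1.87% of all tested genes), pericardial and pleural ranges overlapped, and pericardial libraries 3 and 4 reached above the lowest heart libraries. In pericardial against peritoneal cells Ccr2 was higher by 1.52 ± 0.22 on the log2 scale (limma adjusted p = 0.000570), the 1 member called beside 0.952% of all tested genes (0.525% higher and 0.427% lower). In pleural against peritoneal cells it was higher by 1.06 ± 0.22 (limma adjusted p = 0.0234), again the 1 member called, beside 0.588% of all genes (0.214% higher and 0.374% lower). That second call was lost without pleural library 4 (0.95, adjusted p = 0.0924 in limma), pleural library 5 (0.96, 0.113) or peritoneal library 2 (1.07, 0.0614), while the first was kept without any 1 library. In pericardial against pleural cells no member was called, beside 0.0178% of all genes (0.0089% higher and 0.0089% lower), and none separated every library, beside 1.29% of genes above and 0.783% below. There Ccr2 gave 0.46 ± 0.22, with an unadjusted p of 0.0469 and a limma adjusted p of 0.968, and Ccr2 and Cx3cr1 were the 2 members with an unadjusted p under 0.05.

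Against heart, the log2 fold of Ccr2 was -2.06 ± 0.22 for peritoneal, -1.0 ± 0.22 for pleural and -0.54 ± 0.22 for pericardial cells (limma adjusted p = 1.14e-07, 0.000592 and 0.0333). The pericardial call was lost without pericardial library 2 (-0.44, limma adjusted p = 0.107), pericardial library 5 (-0.46, 0.0795), heart library 4 (-0.43, 0.107) or heart library 5 (-0.45, 0.0871), and with libraries weighted by quality it was -0.14 (0.434). At an equal RPKM total it was -1.17. The genes most like Ccr2 were Batf3, a dendritic cell and monocyte transcription factor, the endotoxin co-receptor Cd14, Cnn2 and Tmem176b (root mean square difference 0.313 to 0.350, SD of Ccr2 0.812).

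Markers of other cells that use CCR2 were set beside these values. The 6 dendritic cell markers summed to 29.2 to 48.8 RPKM in heart libraries and 6.94 to 10.8 in peritoneal ones. Their sums were 13.6 to 21.1 in pericardial and 15.8 to 17.8 in pleural libraries. Heart was thus highest and peritoneal lowest, as for Ccr2, and the pericardial and pleural ranges overlapped, as they did for Ccr2. Of the 6 markers, Flt3, Zbtb46, Clec9a and Itgae were below 0.5 RPKM in every cavity library. Batf3 of this list was called against peritoneal cells, at 11.6 ± 1.66 (SD, n = 4), 10.9 ± 0.360 and 4.73 ± 1.29 RPKM in pericardial, pleural and peritoneal cells (limma adjusted p = 0.00484 and 0.0105 against peritoneal). Cd209a, the other tested marker, averaged 4.99, 5.23 and 4.11 RPKM and was not called there. The order of the sums between cavities thus came mostly from Batf3. The 8 monocyte markers summed to 206 to 361 RPKM in cavity and 18.3 to 27.8 in heart libraries, mostly Ifitm6 and Hp. Against heart, 5 of 7 tested were called higher and 1 lower in each cavity. Over all tested genes 47.8% to 53.8% were higher and 13.9% to 14.7% lower. Ms4a4c was the lower gene, at 6.80 RPKM on average in heart and 0.440 to 0.483 in cavities. Ly6c2 averaged below 0.5 RPKM in all 4 groups. Between cavities the sum of the 9 handling genes ran in the order of the Ccr2 means. It was 339 to 558, 210.4 to 229 and 82.8 to 193 RPKM in pericardial, pleural and peritoneal libraries. Fos averaged 49.9, 13 and 6.05 RPKM in these groups. Of the 9, 5 and 3 were called higher in pericardial and pleural than in peritoneal cells, beside 0.525% and 0.214% of all tested genes. The 7 mast cell markers summed to 2.82 to 12.5 RPKM in peritoneal libraries and 0.207 to 0.842 in the other cavities. Of 3 tested, 1 was called lower in each against peritoneal cells, beside 0.427% (pericardial) and 0.374% (pleural) of all tested genes. Heart stood near peritoneal cells, with Mcpt4, Tpsb2 and Cma1 at 1.73, 1.99 and 1.62 RPKM on average against 1.84, 1.91 and 1.66. Against heart, 0 of the 3 were called in peritoneal cells, and all 3 were lower in pericardial and pleural cells. The part of these genes and cells in the Ccr2 differences was not tested.

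An intersection-union test asked which receptors differed from each of the other 3 populations at once. Heart was set apart by higher Ccr2, Ccrl2, Cx3cr1 and Cxcr4 (limma adjusted p = 0.0423, 2.16e-09, 2.23e-11 and 7.15e-13), beside 11.6% of all tested genes, and by lower Ccr1 and Ackr3 (1.39e-08 and 2.27e-05), beside 41% of all genes. The peritoneal population was set apart by lower Ccr2 (limma adjusted p = 0.0477), beside 0.116% of all genes. No member set pericardial or pleural cells apart, nor did any other gene. Of these 7 results both of Ccr2 lay near the threshold and were lost under several alternatives. The peritoneal result was lost without any 1 of the 4 pericardial or the 4 peritoneal libraries or of pleural libraries 3, 4 and 5. The heart result was lost without pericardial library 2 or 5, peritoneal library 2 or heart library 4 or 5.

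Ccr3, the eotaxin receptor of eosinophils, stayed below 0.5 RPKM in every library. Peritoneal libraries held 0.402, 0.319, 0.418 and 0.416 RPKM, pericardial libraries 0.0881, 0.237, 0.193 and 0.234, pleural libraries 0.300, 0.127, 0.138 and 0.105, and heart libraries 0.152, 0.0331, 0.0670 and 0.117. Every peritoneal library was above every other one. Among tested genes this held for 1.98% against pericardial, 2.04% against pleural and 30.6% against heart libraries, though Ccr3 itself was below the filter. In a fit with no filter on low values, Ccr3 was higher in peritoneal than in heart cells by 0.59 ± 0.10 on the log2(RPKM + 0.5) scale (limma adjusted p = 0.000255), and -0.37 ± 0.10 and -0.42 ± 0.10 in pericardial and pleural against peritoneal cells were not called (0.247 and 0.190). Of 6 eosinophil markers, Siglecf, Epx, Prg2, Prg3 and Ear6 were below 0.5 RPKM in every library, and Il5ra stood between 0.663 and 4.61 RPKM and was not called in any comparison. Reads per gene are not recoverable from these values, so the counting error of so low a level is unknown.

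Cxcr2, known as the receptor that draws neutrophils to CXCL1 and CXCL2, separated no group from another, unlike the rest of the set. Within each cavity, though not in heart, its libraries ranked in the same order as for Cx3cr1. Pericardial libraries held 5.86, 4.64, 3.69 and 24.3 RPKM and pleural libraries 17.7, 18.2, 9.16 and 18.2. Peritoneal libraries held 6.63, 1.85, 33.7 and 13.7 RPKM, and heart libraries 35.7, 32.9, 14.4 and 10.1. All 4 groups overlapped, and peritoneal libraries alone covered most of the range of the series. The log2 fold was -1.45 ± 0.63 for pericardial against heart (limma adjusted p = 0.0481), -0.41 ± 0.63 for pleural (0.595) and -1.14 ± 0.63 for peritoneal cells (0.122). The pericardial call was lost without pericardial library 2, 3 or 4 (-1.37, -1.26 and -1.17), any pleural library, peritoneal library 2 or 5, or heart library 2 or 3 (-1.19 and -1.23), with limma adjusted p from 0.0501 to 0.139. The peritoneal fold was called without peritoneal library 4 (-1.76, limma adjusted p = 0.0156).

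The genes closest to Cxcr2 in pattern were Wnt4, a secreted Wnt protein, the TRAIL receptor Tnfrsf10b, the deubiquitinase Usp17la and the forkhead gene Foxr1, at a root mean square difference of 0.146 to 0.164 (SD of Cxcr2 1.13). Cxcr2 spanned 19.3-fold over the 16 libraries, and its ratio to Wnt4 stayed between 1.23 and 1.79. Wnt4 was picked from all tested genes as the closest over these same libraries, so the narrow ratio is no separate observation. The mean RPKM of 1108 olfactory receptor genes, which macrophages are not known to use widely, was set beside Cxcr2. It was 0.0746 in peritoneal library 4 and 0.0418 in pericardial library 5, the highest of their groups as for Cxcr2. In peritoneal library 3 it was 0.00850, the lowest of all as for Cxcr2. Ranked from the highest of the 16 libraries, pericardial libraries 2 to 5 were 12, 15, 14 and 5 for this mean. For Cxcr2 they were 13, 14, 15 and 4. Pleural libraries were 9, 11, 10 and 6 for the mean and 7, 6, 11 and 5 for Cxcr2. Peritoneal libraries 2 to 4 were 13, 16 and 1, and 12, 16 and 2. Of these, pleural library 3 was furthest apart: pleural libraries 3 and 4 had means of 0.0196 and 0.0205, with Cxcr2 at 18.2 and 9.16 RPKM. Cxcr2 divided by this mean was 218 in peritoneal library 3 and 929 in pleural library 3. With this mean as a covariate, an alternative chosen after seeing the data, the folds were 0.35 in pericardial (limma adjusted p = 0.387), 0.72 for pleural (0.0396) and 0.15 for peritoneal cells (0.686) against heart, all of the opposite sign to those above. The 8 neutrophil markers summed to 2.51 to 6.75 RPKM in cavity and 0.140 to 2.22 in heart libraries. S100a8 made up most of the cavity sums (3.12 to 4.69 on average against 0.147 in heart), while S100a9 averaged 0.379 in heart and 0.0228 to 0.285 in cavities, and Retnlg 0.184 and at most 0.0639. Ly6g, Mmp8, Ltf, Camp and Ngp were below 0.5 RPKM in every library.

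**Figure D4:**
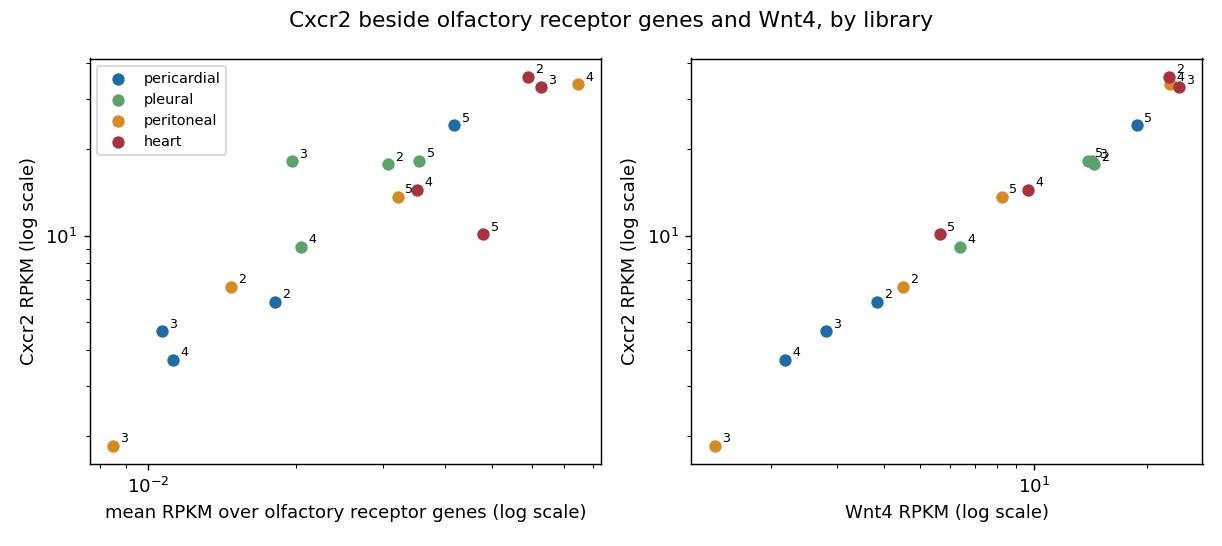
Cxcr2 RPKM against the mean RPKM of olfactory receptor genes (left) and against Wnt4 RPKM (right) in the 16 libraries, on log scales, coloured by population and numbered by library. Points of all 4 populations lie along one band on the right, where the ratio stays between 1.23 and 1.79. Wnt4 was picked as the gene closest to Cxcr2 over these same libraries.

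Summed over all 24 chemokine receptor genes, heart libraries held 381 ± 86.7 RPKM (SD, n = 4), and pericardial, pleural and peritoneal libraries 176 ± 23.6, 162 ± 13.7 and 171 ± 12.1. Ccr1 made up 56.1% ± 5.45, 53.6% ± 2.51 and 55.5% ± 7.35 of that sum in the 3 cavities and 4.77% ± 0.924 in heart. In heart, Cxcr4 gave 28.3% ± 4.30 and Cx3cr1 21.2% ± 0.796. Ccr2 held 8.44% ± 0.682 in heart, and 12.3% ± 1.06, 9.64% ± 1.69 and 4.30% ± 1.09 in pericardial, pleural and peritoneal libraries, so its share in heart was below that in pericardial cells although its RPKM was higher.

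**Figure D5:**
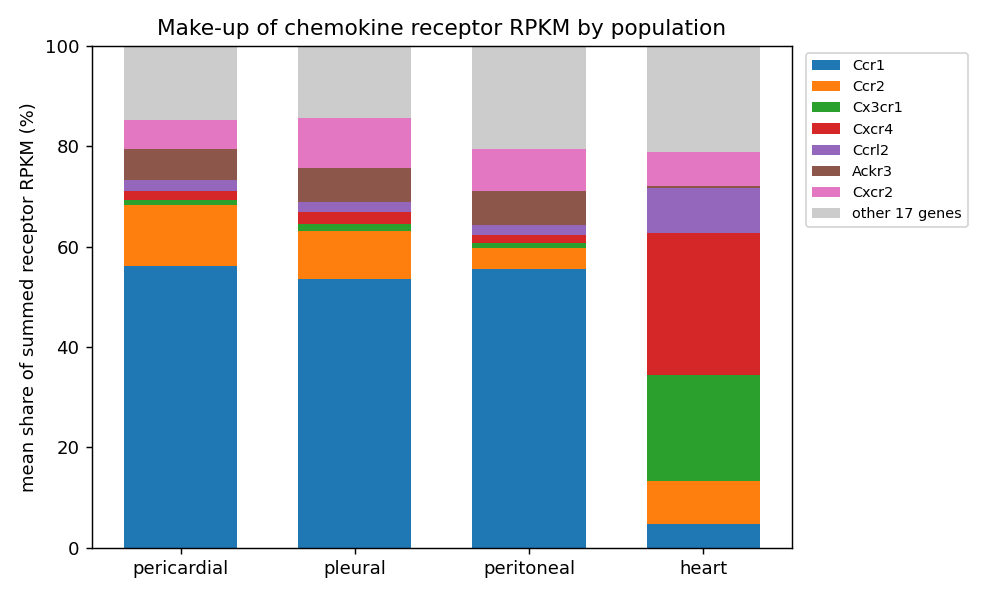
Mean share (%) of the summed RPKM of 24 chemokine receptor genes held by each receptor, by population (4 libraries each). Ccr1 fills the largest part of each cavity bar, and Cxcr4 and Cx3cr1 hold larger shares of the heart bar than Ccr1.

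Among the other 16 chemokine receptor genes, 5 passed the filter, of which 4 are described. Cxcr5, the receptor that guides B cells into follicles, was higher than in heart by 2.16, 2.23 and 1.38 (limma adjusted p = 2.50e-06, 1.81e-06 and 0.000393), beside 6 B cell markers summing to 15.0 to 70.7 RPKM in cavity and 7.65 to 13 in heart libraries, whose part was not tested. Ccr4 was called lower in pericardial than in heart cells (-0.83, limma adjusted p = 0.0276), and Ccr7, which guides cells to lymph nodes, and Xcr1, a receptor of cross-presenting dendritic cells, were not called in any of the 6 comparisons. Cxcr3, the receptor of interferon-induced chemokines, was below the filter at 1.22 ± 0.470 RPKM in heart and at most 0.160 on average in a cavity, and Ccr1l1 reached 0.599 ± 0.437 in heart and 0.589 ± 0.0856 in peritoneal cells.

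Most tested ligand genes were higher in heart. Of 20 ligand genes, 16 were tested, and in each comparison with heart 11 were lower and 3 higher (Ccl6, Cxcl12 and Mif), while Ccl9 and Ccl24 were not called; over all tested genes 13.9% to 14.7% were lower and 47.8% to 53.8% higher. Under the 3 scalings 11 or 12 were lower and 2 or 3 higher. The median log2 fold of the 16 was -2.90, -3.22 and -3.15 in pericardial, pleural and peritoneal cells. Ccl2, the main ligand of CCR2, held 163, 225, 398 and 269.7 RPKM in heart libraries 2 to 5 and at most 2.02 in any cavity library. Its log2 fold against heart was -7.00, -7.45 and -8.04 (limma adjusted p = 4.86e-15, 1.96e-15 and 5.94e-16). The related chemokine genes Ccl7, Ccl12 and Ccl8 had heart means of 142, 93.9 and 37.4 RPKM, with cavity means of at most 0.498. Ccl8 was listed at 0 in every pericardial library. Ccl4, a chemokine made by activated macrophages, likewise held 220.6 RPKM on average in heart and at most 0.763 in a cavity, with log2 folds of -7.77, -7.40 and -7.65 (limma adjusted p = 1.87e-15, 4.00e-15 and 2.16e-15). Between cavities 1 ligand, Ccl2, was called, higher in pericardial than in peritoneal cells by 1.04 (limma adjusted p = 0.0466), from 1.49 against 0.495 RPKM on average. Ccl24 was not called there, but under scaling it was called lower in pleural against peritoneal cells in 2 of 3 alternatives (lowest limma adjusted p = 0.0212) and in pericardial against peritoneal cells in 1 (0.0390).

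Cxcl12, the shared ligand of CXCR4 and ACKR3, went the way of Ackr3. It held 3.82, 3.34 and 3.39 RPKM on average in pericardial, pleural and peritoneal cells and 1.03 in heart, with log2 folds of 1.5, 1.33 and 1.34 (limma adjusted p = 1.90e-07, 1.08e-06 and 9.29e-07). Mif, a cytokine that also binds CXCR4, was higher by 1.14, 1.14 and 1.35 (limma adjusted p = 0.000424, 0.000508 and 9.12e-05). Cx3cl1 stayed at or below 0.758 RPKM in every library and was not tested.

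Of 12 receptors for other chemoattractants, 11 were tested. In pericardial against heart 5 were higher and 6 lower, in pleural 4 and 6, and in peritoneal 4 and 7, beside 47.8% to 53.8% of all tested genes higher and 13.9% to 14.7% lower. Under the 3 scalings 3 or 4 were higher and 6 or 7 lower. P2ry12, an ADP receptor of microglia and some tissue macrophages, had log2 folds against heart of -3.23, -3.36 and -3.07 for pericardial, pleural and peritoneal cells (limma adjusted p = 1.56e-11, 8.49e-12 and 3.35e-11). The complement receptor C5ar2 (-2.39, -1.99 and -2.16) and the oxysterol receptor Gpr183 (-1.67, -1.97 and -1.86) were lower too. Fpr1, which senses bacterial formyl peptides, was higher by 2.37, 2.42 and 2.28 (limma adjusted p = 7.38e-08, 5.74e-08 and 1.27e-07). Ltb4r1, the leukotriene B4 receptor, moved with Ccr2 between cavities, at 2.81, 2.59 and 0.916 RPKM on average in pericardial, pleural and peritoneal cells, and was higher than in peritoneal cells by 1.2 and 1.11 (limma adjusted p = 0.00178 and 0.00389).

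Of 30 genes that carry or end the receptor signal, all were tested. In pericardial against heart 16 were higher and 7 lower, in pleural 15 and 8, and in peritoneal 16 and 7, with median log2 folds of 0.52, 0.43 and 0.50. Over all tested genes 53.8%, 47.8% and 48.8% were higher and 14.7%, 13.9% and 14.1% lower, with medians of 0.45, 0.36 and 0.38. The share of higher genes was thus near that of all genes, while the share of lower genes was above it. This balance depended on scaling: at an equal RPKM total the counts were 12 and 14, 12 and 12, and 13 and 12. The 4 genes named next kept their direction under all 3 scalings. Rgs1, which shortens G protein signals, had log2 folds against heart of -4.00, -4.72 and -4.86 (limma adjusted p = 8.22e-12, 6.73e-13 and 3.80e-13). The receptor kinases differed among themselves: Grk3 was lower (-2.53, -2.45 and -2.48), while Grk5 (3.09, 2.97 and 3.16) and Grk6 (2.71, 2.68 and 2.54) were higher. No gene of this list was called between cavities by limma, where 2, 0 and 1 had an unadjusted p under 0.05 in pericardial against peritoneal, pleural against peritoneal and pericardial against pleural cells. Under scaling, in pericardial against peritoneal cells, Rgs1 was called higher in all 3 alternatives (0.65 to 0.82, limma adjusted p = 0.00486 to 0.0362) and Arrb2, a beta-arrestin that desensitises receptors, lower in 2 of them (lowest adjusted p 0.0181).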

How the data were processed

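The 16 RNA-seq libraries of sorted macrophages, 4 per site, were grouped by their titles. TRIzol was used for RNA and a NEBNext Ultra II kit for libraries, per the labels' protocols. The submitters' processing notes name TopHat2 2.1.1, bcl2fastq 2.17.1, Partek 7.18.0723 and the mm10 build. No source used here gives the annotation, the read total behind RPKM, the use of strand or how reads with several hits were treated. The deposited gene table holds RPKM for 24981 genes, and the authors also deposited a count of alignments per library and group means of log2 RPKM for 42551 transcripts. RPKM are not counts, so no count test was run, and depth per gene is unknown.

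From the deposited RPKM, log2(RPKM + 0.5) was computed for 11234 genes that reached 1 RPKM in 4 or more libraries, and it understates folds of low genes. A linear model of the 4 group means over the 16 libraries (limma 3.58.1 under R 4.3.3, variance prior with a trend, 12 residual degrees of freedom) gave moderated tests of either sign in 6 comparisons and Benjamini-Hochberg adjustment over all tested genes. Errors are SE for folds and SD for RPKM. Set apart means different from each of the other 3 groups in the same direction, judged by the largest of the 3 p-values (an intersection-union test). The fit was tested on simulated data.

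Named were the 8 members, the other receptors that were tested or reached a group mean of 0.5 RPKM, up to 4 called genes per further list with the largest fold against heart and up to 3 between cavities, all listed ligands of Ccr2, Cx3cr1, Cxcr4 and Ackr3, and the 4 genes most alike each tested member. Marker genes were set beside results, and 1 further receptor is not reported here. The members and lists were chosen with earlier results of these data known. Alternatives changed the pseudocount, filter, scaling, variance prior, library weights, groups fitted, replicate block and each library in turn. Same-numbered libraries deviated together in pericardial and pleural cells (correlations of 0.194, 0.300, 0.630 and 0.425 across genes). Numbers were thus taken to pair those groups, though the main fit has no pairing. The replicate block left 2 genes and 0 members called between them, as without it. It was shared by all 4 groups, and same-numbered peritoneal and heart libraries correlated at -0.323, -0.394, -0.391 and -0.402. The block was therefore no paired fit of pericardial and pleural libraries alone, and no such fit is given here. Promoter windows came from RefSeq (GRCm38.p6), with windows for all 8 members; that of Ccr2 lies within its gene's listed span and is not shown.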

Additional observations from a re-analysis of the deposited data

Results flagged for a closer look

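In 5 of 32 groups of 4 libraries (8 receptors in 4 populations), 1 library's gap to its nearest neighbour took a share of the group's range above the 95% critical value of Dixon's test, and chance alone passes it in about 1 of 20 groups. Cxcr2 stood at 24.3 RPKM in pericardial library 5, where the other 3 were between 3.69 and 5.86, and at 9.16 in pleural library 4, where the others were between 17.7 and 18.2. Ackr3 stood at 19.4 RPKM in pleural library 4, where the others were between 7.45 and 8.93, and at 5.06 in heart library 2, where the others were between 0.398 and 1.11. Ccr3 stood at 0.319 RPKM in peritoneal library 3, where the others were between 0.402 and 0.418, all near the lower end of measurement.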

How the results depend on the processing

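Of 1218 values of the 42 member folds under alternatives, 1178 kept their direction and their side of the threshold (28 of these were uncalled folds whose sign changed, 15 of them when 1 library was left out), 27 lost and 11 gained a call, and 2 reversed. Both reversals were Cxcr2 with olfactory receptor level as a covariate, chosen after seeing the data (0.35 in pericardial and 0.72 in pleural against heart). The cause of these changes was not tested. Members called in pleural against peritoneal cells numbered 0 with no filter (more genes are then adjusted for), 2 with quantile normalization and 3 with library weights, and 5 in pericardial against pleural cells with library weights. Leaving out 1 library, members called ranged from 5 to 7 in pericardial, 6 to 6 in pleural and 6 to 7 in peritoneal against heart, 1 to 1 in pericardial against peritoneal, 0 to 1 in pleural against peritoneal, 0 to 0 in pericardial against pleural, and 5 to 7 for members set apart. Genes called in pericardial against peritoneal cells were 253, 302 and 476 under median-ratio, quantile and equal-total scaling, 972 with library weights and 199 with the covariate, against 107. In pleural against peritoneal cells they were 473, 559, 744, 2208 and 267 in that order, against 66, and 716 without pericardial library 5 and peritoneal library 4, also chosen after seeing the data. In pericardial against pleural cells they were 5 with median-ratio scaling, 3608 with library weights, 7 with a pseudocount of 0.1, 0 with no filter, 4 with those groups alone and 6 without those 2 libraries, against 2. Leaving out 1 library, genes called ranged from 6542 to 8209, 5822 to 7493 and 5875 to 8290 in pericardial, pleural and peritoneal against heart, 60 (without pericardial library 2) to 114 in pericardial against peritoneal, 39 (without pleural library 5) to 485 (without peritoneal library 4) in pleural against peritoneal, and 1 to 4 in pericardial against pleural cells. In pericardial against heart, median-ratio and quantile scaling gave 4409 higher and 2833 lower, and 4489 and 2865. The same 2 scalings gave 3963 and 2774, and 4290 and 2787, in pleural and 4116 and 2689, and 4347 and 2776, in peritoneal against heart. Ccr2 no longer set peritoneal cells apart with a pseudocount of 0.1, either weaker filter or the replicate block, nor heart with either weaker filter or library weights, and without pericardial library 5 and peritoneal library 4 both were lost. With the replicate block, Cxcr2 in pericardial against heart gave a limma adjusted p of 0.0542 and no other member fold changed its call. Same-numbered libraries correlated between -0.627 and 0.630, and 11 of 24 correlated best with their own number. Reads per gene are unknown, so low levels such as those of Ccr3 carry an unknown counting error.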
